A study of Mus musculus with 10 samples.

Results

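The Rab small GTPases, the largest branch of the Ras superfamily, were described by their transcripts in regulatory T (Treg) cells, a CD4 T cell type that expresses Foxp3 and dampens immunity. Members were the rows of the deposited gene table whose symbol is Rab followed by a number and at most 1 letter. They were 40 of 14738 genes, all 40 protein-coding in RefSeq, and all 40 passed the filter on low values. RNA was sequenced from spleen Treg cells of mixed bone-marrow chimeras, with 5 biological replicates per genotype and 10 libraries in all. WT marrow carried Foxp3Cre, and Flcn KO marrow carried Foxp3Cre with Flcn fl/fl alleles, so both groups held the Cre, which acts in Foxp3-expressing cells. Each was mixed with an equal part of CD45.1+ marrow, and the sorted cells were CD4+ and Foxp3-YFP+, with CD45.2 and without CD45.1. Neither age nor sex of the mice was given in the sources used here, and no batch was.

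A Rab protein switches between a GTP-bound form, which recruits effectors such as tethers and motors to a membrane, and a GDP-bound form. Exchange factors load GTP, GTPase-activating proteins end the active state, prenylation anchors the protein, and GDI chaperones take it back off the membrane. Each Rab marks a compartment, so that Rab5 marks early endosomes, Rab7 late endosomes and lysosomes, Rab11 recycling endosomes and Rab27a secretory lysosomes. Folliculin, the product of Flcn, is a lysosome-associated protein with a DENN domain, the fold found in a class of Rab exchange factors.

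Values are normalized counts, meaning reads of a gene over the size factor of its library. Libraries held 1914516 to 4153854 reads in genes, and Rab transcripts took 3769 to 7951 of them. WT replicate 1 stood apart from the other libraries. Mitochondrial rRNA gene mt-Rnr2 took 22.5% of its reads and 13.8% to 18.3% in the other libraries, and 807 genes were at 0 in it against 117 to 389. Rab transcripts took 0.150% of its reads (95% Wilson interval 0.146 to 0.155) against 0.181% to 0.209%. In normalized counts, which all comparisons below use, their sum was instead the highest in WT replicate 1 (5439, against 4649 to 5294 in the others). Flcn was at 45.6 to 78.0 in WT and 124 to 158 in the libraries labelled Flcn KO (log2 fold change 1.36, SE 0.17, limma adjusted p = 0.00476), so it was higher where it was to be deleted. The table gives 1 value per gene, so it is not known whether these reads cover the deleted part, the labels stay unchecked, and all directions follow the labels as deposited. The Treg genes Foxp3 (1056 to 1384) and Cd4 (1102 to 1697) were high in all 10 libraries. Of the 8 Treg and T-cell markers listed, limma called Il2ra higher (0.56) and Ikzf2 lower (-0.55), while edgeR called 3 and DESeq2 4. Of all genes they tested, limma called 1.71%, edgeR 5.64% and DESeq2 4.93%, so these markers were called at a higher share. An unadjusted limma p under 0.05 was found for 5 of the 8, beside 14.0% of all tested genes, and the median log2 fold change was -0.26. Sums of the 8 markers ran from 11538 to 12976 in WT and from 10440 to 11646 in Flcn KO. Summed B-cell markers, 14 genes, ran from 1459 to 1670 in WT and from 1658 to 3156 in Flcn KO. Summed myeloid and dendritic markers, 16 genes, ran from 149 to 431 and from 276 to 667. No gene of either list passed in limma (edgeR called 1 myeloid gene, Cybb) or was at 0 in all libraries. An unadjusted limma p under 0.05 was found for 3 of the 14 B-cell genes and 5 of the 16 myeloid and dendritic genes, beside 14.0% of all tested genes. Their median log2 fold changes were 0.47 and 0.59. The part of such cells in the Rab values was not tested.

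Rab transcripts as a family were close to level between the genotypes. Their normalized counts summed to 5016 ± 336 in WT and 4888 ± 173 in Flcn KO (SD, n = 5 each), with ranges of 4649 to 5439 and 4679 to 5113 that overlapped. In bulk samples fewer cells of a type and less RNA per cell cannot be told apart. Genotypes were compared in limma after adding 1 and taking log2, with p-values adjusted over all 14723 tested genes and a threshold of 0.05. None of the 40 members passed it, where 1.71% of all tested genes did (0.944% higher and 0.768% lower in Flcn KO), and the lowest adjusted p among them was 0.201. At an unadjusted limma p under 0.05 there were 5 members, 12.5% of them, beside 14.0% of all tested genes. Positive log2 fold changes were seen for 18 members and negative ones for 22. The median was -0.06, beside 0.00344 for all tested genes. Tests on the recovered whole reads called 1 member, Rab8b, in edgeR (31 members tested, 5.64% of tested genes called), in DESeq2 (4.93%) and in limma-voom (5.61%). The same gene alone was called by limma on the normalized counts with trend and robust moderation (4.06%) and in the authors' deposited table (4.77%).

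The precision of these values depended on depth. Of 31 members with a mean of at least 20 normalized counts, 30 had a 95% limma interval that lay within a 2-fold difference either way, beside 87.0% of all 8749 genes of that level. For 19 of the 31 it lay within 1.5-fold, beside 48.6%. The exception at 2-fold was Rab9, whose interval reached 1.004 on the log2 scale. The other 9 members had fewer counts. Of these, Rab2b (-0.43 to 0.47) and Rab31 (-0.81 to 0.95) had log2 intervals within a 2-fold difference in limma, and those of the other 7 reached beyond it. For Rab2b and Rab31 the authors' deposited table gave larger SEs, 0.43 and 0.56, than limma did (0.20 and 0.40). A change within 2-fold is thus not established for them. Intervals are not adjusted for the number of genes.

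**Figure D1:**
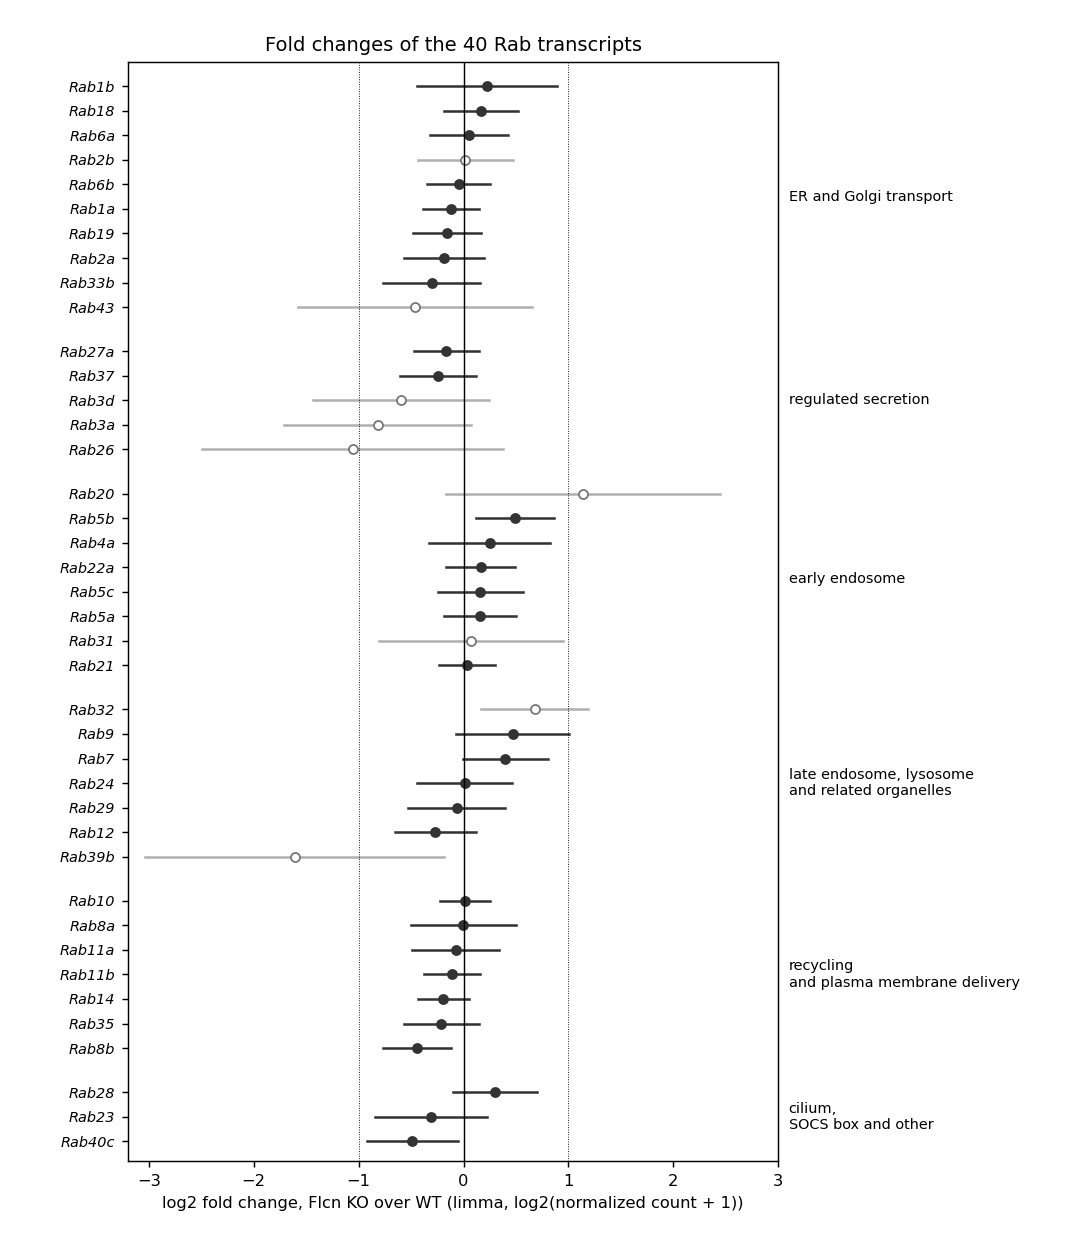
Log2 fold changes (Flcn KO over WT, limma on log2(normalized count + 1)) of the 40 Rab transcripts with 95% intervals, grouped by role. Filled points are the 31 members with a mean of at least 20 normalized counts, open points the other 9, and dotted lines mark a 2-fold difference. In this fit the 8 early endosome members lie right of 0, of which Rab31 is negative in DESeq2 (-0.23) and without WT replicate 1 (-0.19) and Rab21 reaches -0.009 with 1 library left out. The 5 members of regulated secretion lie left of 0, and Rab8b is the lowest of the recycling members. Each gene was given 1 role, and the sign pattern of a role depends on this assignment.

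By level, the Rab genes of degradation, endosome traffic and the early secretory pathway led. Per kilobase of the longest coding transcript, WT levels were highest for Rab7 (191 ± 50.9 normalized counts per kb), Rab14 (155 ± 3.55), Rab24 (137 ± 6.27), Rab2a (130 ± 34.8) and Rab1a (116 ± 12.5; SD, n = 5). Rab8b was the sixth at 92.5 ± 16.8. The spreads of Rab7 and of Rab2a reached their neighbours, so the order among these is not settled beyond the spread of libraries. The lowest member was Rab39b at 1.99 ± 1.47 per kb. The lengths come from GENCODE vM21, not from the annotation behind the counts.

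**Figure D2:**
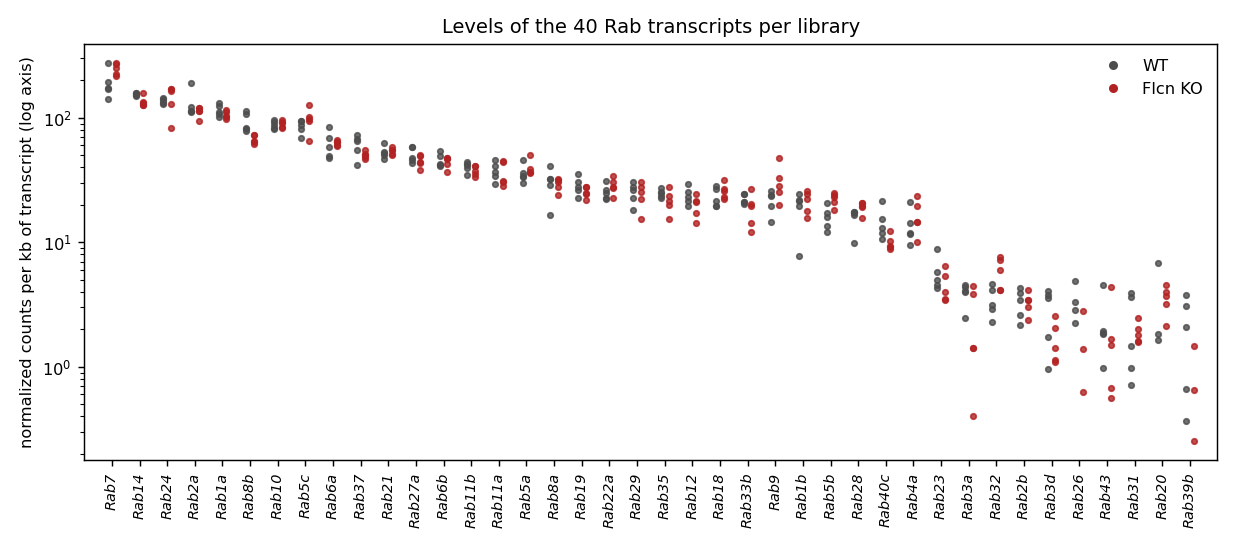
Level of each Rab transcript in every library, in normalized counts per kb of transcript on a log axis (values of 0 are not drawn), ordered by the WT mean. WT libraries are grey and Flcn KO libraries red. Rab7, Rab14 and Rab24 lead, and the members from Rab23 to Rab39b lie below nearly all of the rest.

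Among Rabs of recycling and delivery to the plasma membrane, Rab8b was the member with the lowest adjusted p of the whole family. Rab8b, which with its paralog Rab8a carries cargo from the Golgi and recycling endosomes to the cell surface, was at 511, 389, 383, 369 and 536 in WT replicates 1 to 5. It was at 342, 311, 344, 304 and 293 in Flcn KO replicates 1 to 5. Every Flcn KO library lay below every WT library. Groups without overlap, in either direction, were found for 1 of the 40 Rab genes (2.5%) and for 4.92% of all tested genes. The means were 438 ± 79.3 and 319 ± 22.9, and the log2 fold change was -0.44 (SE 0.14, 95% interval -0.76 to -0.12, limma adjusted p = 0.201). The adjusted p was 0.0159 in edgeR, 0.0087 in DESeq2 and 0.0215 in limma-voom. The authors' deposited table gave a log2 fold change of -0.46 with an adjusted p of 0.00767. Its paralog Rab8a was at 75.5, 147, 132, 187 and 148 in WT and at 143, 128, 109, 138 and 146 in Flcn KO. These groups overlapped (log2 fold change -0.003, SE 0.22). Rab8b made up 66.4% to 87.1% of the Rab8a and Rab8b counts in WT and 66.7% to 75.9% in Flcn KO, so the shares overlapped. The highest share was that of WT replicate 1, in which Rab8a was at its lowest, 75.5. Reads shared by close paralogs such as these could have been split between them by the authors' counting.

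The other recycling members overlapped between the groups. Rab14, which acts between early endosomes and the Golgi, was at 489, 473, 461, 480 and 484 in WT and at 392, 394, 410, 488 and 408 in Flcn KO. The Flcn KO libraries other than replicate 4 lay below all WT libraries, and the log2 fold change was -0.20 (SE 0.11, limma adjusted p = 0.482). Rab11a, of the recycling endosome, was at 108, 95.4, 85.3, 79.3 and 69.3 in WT and at 66.0, 71.1, 106, 103 and 72.2 in Flcn KO. Its paralog Rab11b was at 243, 211, 256, 261 and 269 in WT and at 249, 228, 215, 206 and 250 in Flcn KO. High and low libraries of both lay in each group, and the log2 fold changes were -0.07 (SE 0.19) and -0.11 (SE 0.12). Rab35, which returns cargo from endosomes to the plasma membrane, was at 64.4, 69.8, 66.2, 77.0 and 71.4 in WT and at 78.0, 56.6, 60.8, 43.6 and 66.6 in Flcn KO. The spread was wider in Flcn KO and took in the whole WT range (-0.21, SE 0.16). Rab10, which carries vesicles to the surface, had a log2 fold change of 0.02 (SE 0.11). The 7 members of this role summed to 1679 to 1885 in WT and to 1480 to 1606 in Flcn KO, so that these sums did not overlap. The sums of the other 5 roles overlapped between the groups, such as 713 to 811 and 800.1 to 876 for the early endosome. Rab8b and Rab14 are the most abundant of the 7 by counts, and most of the difference between the mean sums (1769 in WT and 1558 in Flcn KO) lies in them. Their means were 438 and 319 for Rab8b and 478 and 418 for Rab14, so these sums are not a separate result from Rab8b.

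**Figure D3:**
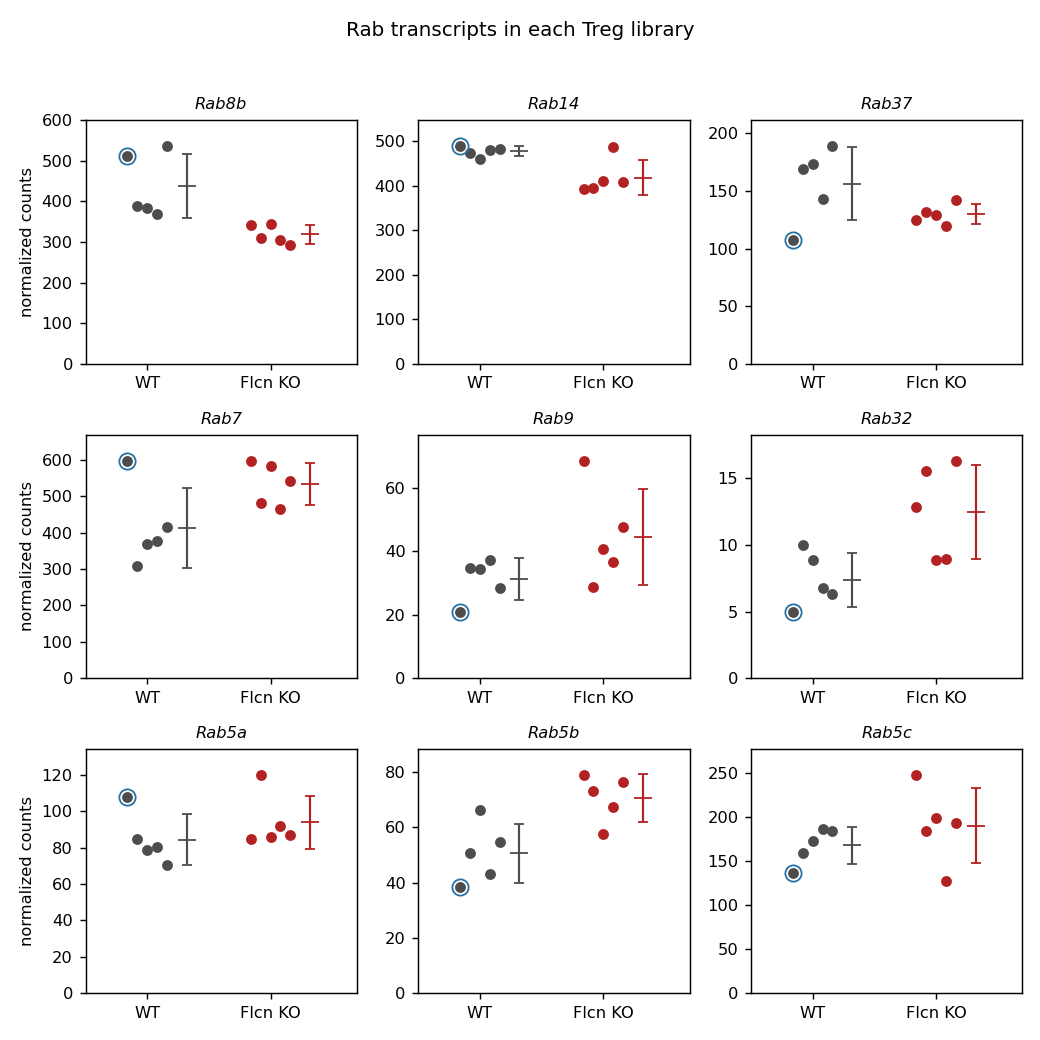
Normalized counts of 9 Rab transcripts in each library (points), with the mean and SD (n = 5) beside each group. A blue ring marks WT replicate 1. The groups separate for Rab8b alone, and those of Rab7, Rab5a and Rab37 separate once WT replicate 1 is set aside. For Rab5a and Rab37 they then do so by under 1 normalized count.

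All 8 early endosome members had positive log2 fold changes, beside 50.6% of all tested genes, and none passed in limma or in edgeR. Each Rab gene was given 1 role here, so this count depends on the assignment. Rab14, which acts between early endosomes and the Golgi, was counted with the recycling members (-0.20). The sign of 2 of the 8 depends on the setting: Rab31 had means of 7.42 in WT and 6.57 in Flcn KO and was negative in DESeq2 (-0.23) and without WT replicate 1 (-0.19), and Rab21 reached -0.009 with 1 library left out. The median of the 8 was 0.16 and 1 of them, Rab5b, had an unadjusted limma p under 0.05. Rab5a, Rab5b and Rab5c drive the fusion of early endosomes. Rab5b was at 38.4, 50.5, 66.2, 43.1 and 54.6 in WT and at 78.9, 73.3, 57.5, 67.4 and 76.6 in Flcn KO. WT replicate 3 lay within the Flcn KO range, and the other WT libraries lay below it. The log2 fold change of Rab5b was 0.49 (SE 0.17, limma adjusted p = 0.22; edgeR adjusted p = 0.136). Rab5a was at 108, 84.7, 78.9, 80.4 and 70.3 in WT and at 84.9, 120, 86.2, 92.2 and 87.3 in Flcn KO. WT replicate 1 was the WT library that overlapped, and WT replicate 2 lay below Flcn KO replicate 1 by under 1 normalized count. The log2 fold change of Rab5a was 0.16 (SE 0.15, limma adjusted p = 0.721). Rab5c was at 136, 159, 173, 187 and 185 in WT and at 248, 184, 199, 128 and 194 in Flcn KO, where replicate 4 was the lowest library of all (0.16, SE 0.18). The share of Rab5b in the summed counts of the 3 Rab5 genes was 13.6% to 20.8% in WT and 16.8% to 23.4% in Flcn KO, and the ranges overlapped. Rab21, which takes part in the uptake of integrins, was at 216 to 291 in WT and 232 to 266 in Flcn KO (0.03, SE 0.12), and Rab22a of endosome sorting had 0.16 (SE 0.15). The low-count members Rab20 and Rab31, which edgeR did not test, had group means under 10. The summed B-cell and myeloid markers had higher means in Flcn KO as well (2057 against 1522, and 421 against 307), and their part in these values was not tested.

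The promoters of Rab5a, Rab21 and Rab24 hold the core CACGTG with GT before it and AC after it, a palindrome of the CLEAR type bound by the MiT/TFE factors, which folliculin is known to restrain. They are shown because these genes carry those letters while none of the 3 passed the test. Rab24, a Rab linked to autophagy, had a log2 fold change of 0.01 (SE 0.20). The windows run from 250 bases before to 50 after the annotated start (RefSeq, GRCm38.p6), 5′ to 3′ on the gene's strand, with the palindrome in capitals.
Rab5a promoter, chr17:53478984-53479283, plus strand: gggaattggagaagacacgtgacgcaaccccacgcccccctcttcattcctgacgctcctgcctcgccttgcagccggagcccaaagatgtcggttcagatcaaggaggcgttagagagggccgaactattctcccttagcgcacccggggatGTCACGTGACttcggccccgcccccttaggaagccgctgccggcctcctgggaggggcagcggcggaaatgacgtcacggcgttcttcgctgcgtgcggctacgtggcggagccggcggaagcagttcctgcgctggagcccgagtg
Rab21 promoter, chr10:115315542-115315841, minus strand: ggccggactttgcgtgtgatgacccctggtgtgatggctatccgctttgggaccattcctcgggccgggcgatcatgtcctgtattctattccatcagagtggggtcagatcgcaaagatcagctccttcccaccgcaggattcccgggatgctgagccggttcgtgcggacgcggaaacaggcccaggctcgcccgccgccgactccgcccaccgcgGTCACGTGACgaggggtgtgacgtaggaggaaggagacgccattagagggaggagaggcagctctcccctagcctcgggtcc
Rab24 promoter, chr13:55321931-55322230, minus strand: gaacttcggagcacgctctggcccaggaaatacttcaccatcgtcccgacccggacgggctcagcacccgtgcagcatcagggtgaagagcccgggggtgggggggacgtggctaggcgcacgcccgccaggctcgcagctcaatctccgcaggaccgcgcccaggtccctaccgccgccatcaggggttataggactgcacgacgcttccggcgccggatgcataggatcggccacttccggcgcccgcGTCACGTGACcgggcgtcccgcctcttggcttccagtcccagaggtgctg
The palindrome reads the same on both strands. It was found in 0.326% of 32851 promoter windows, and in 3 of 42 windows that matched 35 of the 40 Rab genes. The core CACGTG alone was found in 7.15% of all windows and in those of Rab20, Rab21, Rab23, Rab24, Rab27a and Rab5a. In the Rab24 window the palindrome begins right behind the 250 bases that precede the start. Of 79 tested genes with the palindrome in such a window, limma called 1, which was higher in Flcn KO, and their median log2 fold change was 0.06. Of 1089 tested genes with the core CACGTG, 1.74% were called higher and 0.275% lower, with a median of 0.08. Of all 9349 tested genes with a window, 0.963% were called higher and 0.909% lower, with a median of 0.01. These shares describe the windows, and their difference was not tested. A match describes letters in this window and says nothing about binding in these cells.

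Members tied to late endosomes, lysosomes and related organelles did not move one way. Rab7, which drives the fusion of late endosomes and autophagosomes with lysosomes, was at 597, 308, 368, 376 and 416 in WT and at 597, 482, 581, 466 and 542 in Flcn KO. WT replicate 1 was level with the highest Flcn KO library, while WT replicates 2 to 5 lay below all Flcn KO libraries. The log2 fold change was 0.40 (SE 0.18, 95% interval -0.004 to 0.80, limma adjusted p = 0.362; edgeR adjusted p = 0.117). Without WT replicate 1 it was 0.54 (limma adjusted p = 0.108). Rab9, which returns mannose 6-phosphate receptors from late endosomes to the Golgi, was at 21.1, 34.9, 34.4, 37.4 and 28.3 in WT and at 68.6, 28.9, 40.9, 36.7 and 47.7 in Flcn KO. These groups overlapped (0.47, SE 0.24, limma adjusted p = 0.437). Rab32, of lysosome-related organelles, was at 4.95, 9.97, 8.91, 6.80 and 6.30 in WT and at 12.9, 15.5, 8.84, 8.92 and 16.3 in Flcn KO. Both groups rest on few reads, and the log2 fold change was 0.68 (SE 0.23, limma adjusted p = 0.214). Rab24 was at 151, 155, 168, 161 and 167 in WT and at 199, 198, 192, 96.1 and 151 in Flcn KO. Flcn KO replicates 1 to 3 lay above all WT libraries, and replicates 4 and 5 below them. Rab29 had -0.07 (SE 0.21) and Rab12 had -0.27 (SE 0.17). Rab39b was listed at 0 in 2 Flcn KO libraries, with means of 6.77 ± 5.01 and 1.60 ± 2.08 (-1.61, SE 0.64, limma adjusted p = 0.297).

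Leaving out WT replicate 1 moved the number of members at an unadjusted limma p under 0.05 from 5 to 9, beside 14.3% of all genes then tested. No member passed after adjustment, and the lowest adjusted p was 0.108, that of Rab7. The groups then did not overlap for 4 of the 40 members, Rab5a, Rab7, Rab8b and Rab37, beside 7.25% of all tested genes. For Rab5a and Rab37 the margin was under 1 normalized count. These 4 names were read off after their values were seen.

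**Figure D4:**
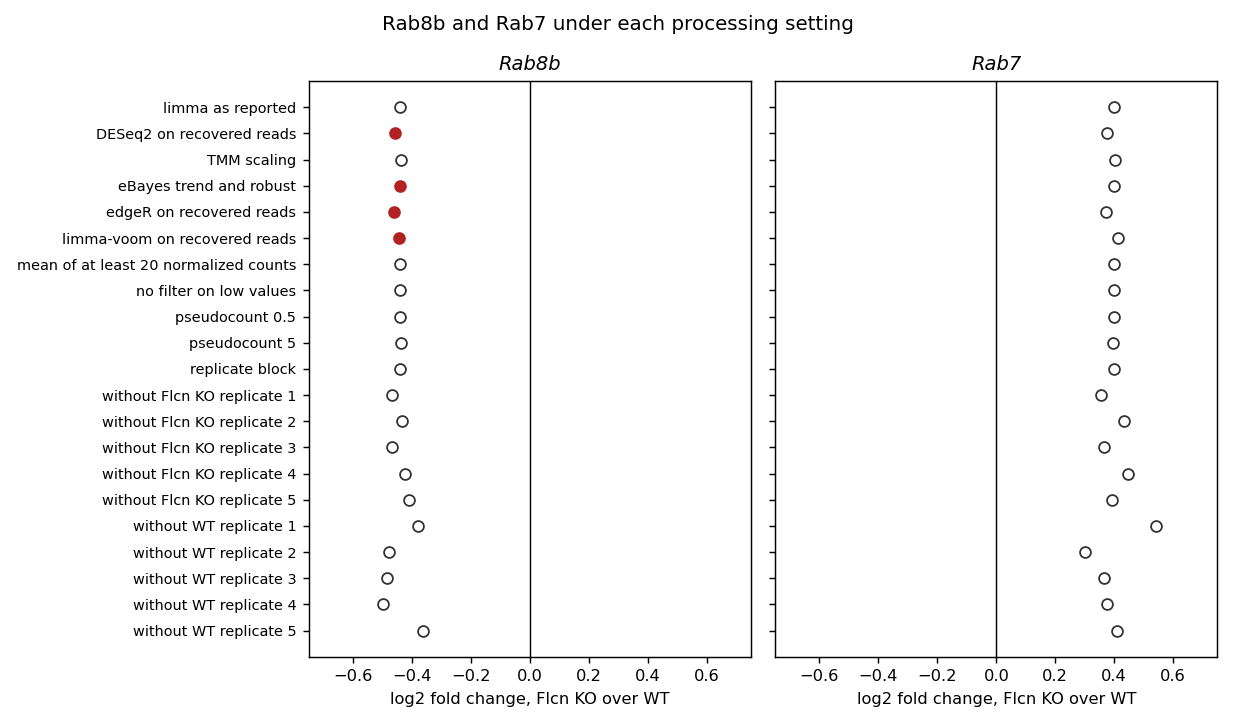
Log2 fold changes (Flcn KO over WT) of Rab8b and Rab7 under limma as reported and each alternative setting. Filled points have an adjusted p under 0.05. Rab8b stays negative in all settings and is called in 4 of them, and Rab7 stays positive, is not called in any and is highest without WT replicate 1.

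The 5 members of regulated secretion all had negative log2 fold changes, where 50.6% of all tested genes had positive ones, and none passed in limma or DESeq2. Of these, 3 rest on few reads, and the median of -0.60 is the value of 1 of them, Rab3d. Rab27a, which docks secretory lysosomes at the plasma membrane of lymphocytes, was at 185, 152, 139, 145 and 186 in WT and at 141, 155, 122, 139 and 161 in Flcn KO (-0.16, SE 0.14, limma adjusted p = 0.671). Rab37, a Rab of exocytosis, was at 108, 169, 173, 143 and 189 in WT and at 125, 132, 129, 120 and 143 in Flcn KO. WT replicate 1 was the lowest library of all for Rab37, and the others of WT lay above all of Flcn KO, by a margin of under 1 normalized count for WT replicate 4 (-0.24, SE 0.16, limma adjusted p = 0.567; without WT replicate 1 -0.37, adjusted p = 0.21). Rab3a, Rab3d and Rab26, known from granule and vesicle release, had group means under 11 in both genotypes. Reads of Rab26 and of Rab10 cannot be told apart from those of their antisense genes Rab26os and Rab10os unless the counting used strand, on which the sources give nothing.

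The Rabs of the early secretory pathway were close to level. Rab1a and Rab1b, which act from the endoplasmic reticulum to the Golgi, had log2 fold changes of -0.12 (SE 0.12) and 0.22 (SE 0.30). Rab1a was at 374, 288, 306, 313 and 353 in WT and at 324, 294, 314, 289 and 278 in Flcn KO. Rab1b was at 14.9, 41.3, 47.1, 41.9 and 37.8 in WT and at 34.3, 30.0, 49.7, 46.6 and 42.7 in Flcn KO, and without WT replicate 1 its log2 fold change was -0.07. Rab2a, of the Golgi, was at 410, 243, 242, 237 and 259 in WT and at 255, 241, 244, 203 and 254 in Flcn KO, and without WT replicate 1 its log2 fold change moved from -0.19 to -0.04. Rab6a and Rab6b, of transport within and from the Golgi, were of like counts, with Rab6b at 44.2% to 59.0% of their sum in WT and 47.3% to 55.3% in Flcn KO. Outside these groups Rab40c, which carries a SOCS box that recruits a ubiquitin ligase, was at 29.7, 54.1, 26.7, 38.5 and 32.5 in WT and at 25.7, 23.3, 23.2, 30.7 and 22.0 in Flcn KO. These ranges overlapped (-0.49, SE 0.19, limma adjusted p = 0.297). Rab23 and Rab28, tied to the cilium, had -0.31 (SE 0.24) and 0.30 (SE 0.18).

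Regulators and effectors of Rab proteins were called at a share near that of all genes. Of 140 such genes in the lists used, limma called 3 (2.14%, beside 1.71% of all tested genes), 1 higher and 2 lower in Flcn KO. Among 29 exchange factors without a DENN domain 1 fell and none rose in limma. In this list edgeR called 1 as well (beside 5.64% of all genes it tested). Rin2, an exchange factor for Rab5 whose product also binds Ras, was at 39.6, 27.1, 25.5, 43.1 and 32.5 in WT and at 6.86, 8.88, 7.74, 5.95 and 10.7 in Flcn KO. It fell by 1.93 on the log2 scale (SE 0.20, limma adjusted p = 0.0014), and all Flcn KO libraries lay below all WT libraries. Rabgef1, Rin3 and Gapvd1, further factors that act on Rab5, did not pass, with log2 fold changes of -0.36, -0.09 and 0.14.

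**Figure D5:**
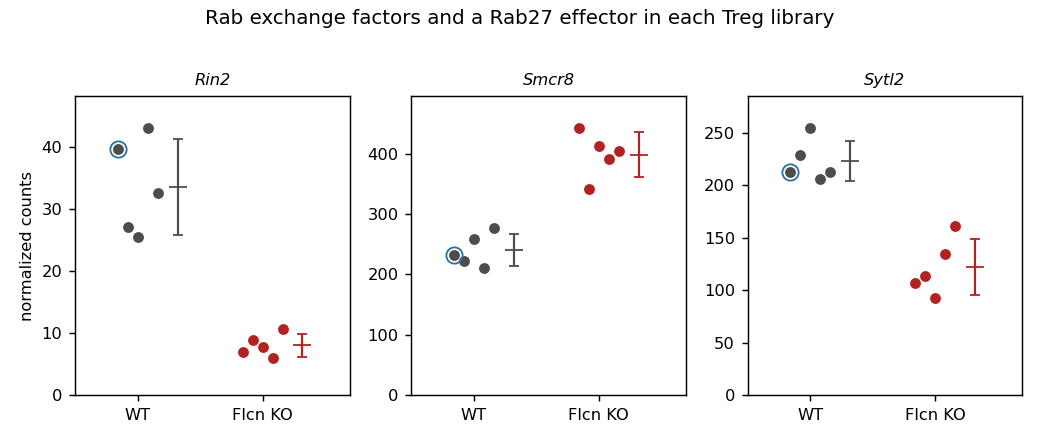
Normalized counts in each library (points) of the 3 Rab regulators and effectors called in limma, with the mean and SD (n = 5) beside each group and a blue ring around WT replicate 1. In each panel the groups do not overlap, with Smcr8 higher and Rin2 and Sytl2 lower in Flcn KO. The title counts Smcr8 as an exchange factor by its DENN domain alone.

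Among 21 genes of DENN-domain proteins, not all of them known as exchange factors, 1 rose and none fell in limma. In this list 2 were called in edgeR and 3 were at an unadjusted limma p under 0.05 (beside 5.64% and 14.0% of all tested genes). Smcr8, whose product forms a complex with C9orf72 that acts on small GTPases, was at 233, 221, 258, 211 and 276 in WT and at 442, 341, 412, 390 and 405 in Flcn KO (log2 fold change 0.73, SE 0.13, limma adjusted p = 0.0204). Its call was lost without WT replicate 2 or 4, or Flcn KO replicate 1, 3 or 5 (adjusted p up to 0.0639). The row for C9orf72, listed as 3110043O21Rik, was at 22.3 to 48.3 in WT and 19.7 to 25.4 in Flcn KO (-0.48, SE 0.22, limma adjusted p = 0.359). Among 47 effectors 1 fell and none rose in limma, beside 1.71% of all tested genes called. Of the 47, 4 were called in edgeR and 7 were at an unadjusted limma p under 0.05 (beside 5.64% and 14.0% of all tested genes). Sytl2, a synaptotagmin-like protein that binds Rab27, was at 213, 229, 255, 206 and 213 in WT and at 107, 113, 92.8, 135 and 161 in Flcn KO (-0.89, SE 0.16, limma adjusted p = 0.025). Its call was lost without WT replicate 2, 3, 4 or 5, or Flcn KO replicate 1, 2 or 3 (adjusted p up to 0.0724).

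Of 34 GTPase-activating proteins none passed in limma, 5 had an unadjusted limma p under 0.05 and edgeR called 2, counts close to the 14.0% and 5.64% of all tested genes. Of 6 chaperones and prenylation proteins none passed in limma or edgeR and none had an unadjusted limma p under 0.05. Gdi2, a chaperone that takes Rabs off membranes, was at 442 to 573 in WT and 398 to 538 in Flcn KO (-0.04, SE 0.13). edgeR on the recovered reads called 10 of the 127 regulators and effectors it tested, the 3 above and 7 more (7.87%, beside 5.64% of all genes it tested). DESeq2 called the same 10 (7.14% of 140, beside 4.93%). By edgeR the 7, named after their values were seen, included 2 that rose. These were Tbc1d15 (edgeR adjusted p = 0.0117), a GTPase-activating protein for Rab7, and Ppm1h (0.0132), a phosphatase that acts on phosphorylated Rab8 and Rab10. The 5 that fell were Eea1 (0.00304), a tether that Rab5 recruits; Fyco1 (0.0454), a motor adaptor of Rab7; Bicd1 (0.03), a dynein adaptor of Rab6; Rabgap1l (0.0277); and Dennd5a (0.0465). Eea1 was at 415, 220, 374, 247 and 306 in WT and at 180, 134, 228, 179 and 187 in Flcn KO, so that 1 Flcn KO library overlapped with 1 WT library. Tbc1d15 was at 180 to 213 in WT and 242 to 348 in Flcn KO, without overlap. In limma these 7 had adjusted p between 0.112 and 0.277.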

How the data were processed

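RNA from 10 Treg libraries was measured. The deposited table gives per library a signal, read here as normalized counts. All values (100%) are whole multiples of 1 step per library within 0.01 reads, so whole reads were recovered. The authors deposited beside these their own genotype comparison, as log2 fold change with error, a test statistic (score), p-value and adjusted p-value. The submitters' processing notes name DESeq2 1.24.0, RSEM 1.3.1, STAR 2.5.3a, Trimmomatic 0.36 and the mm9 build. What each was used for, and the annotation, is not given in the sources used here.

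limma 3.58.1 was fitted on log2(normalized count + 1) with genotype alone, over genes at 1 or more in at least 5 libraries, and Benjamini-Hochberg adjusted. The added 1 shrinks changes of low counts. Alternatives were edgeR 4.0.16 (quasi-likelihood), DESeq2 1.42.0 and limma-voom on recovered reads, other pseudocounts (0.5 and 5), filters, scaling, moderation, a replicate block and leaving out each library. The fit was tested on simulated data. Wilson intervals cover counting error only, since reads are not independent molecules. No 2 libraries of a genotype agreed within counting noise (chi-square per degree of freedom 2.08 to 26.7), and each was counted. Pairs with WT replicate 1 gave 20.1 to 26.7, and the other pairs 2.08 to 9.76.

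The members and lists were chosen with earlier results of these data known. Full values were given for Rab genes called by any tool or with separate groups, for a panel of 15 by role, and for the 5 of highest level per kb; for regulators, for up to 4 called per list. Other genes given with values were chosen after their values were seen. Some genes of the regulator lists are not reported here and are in none of the lists' counts.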

Additional observations from a re-analysis of the deposited data

Results flagged for a closer look

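In 9 of 86 groups of 5 libraries (40 Rab genes and the 3 called regulators, 2 groups each), 1 library lay far from the others. Chance would give about 1 in 20 such groups if the values were independent and normally distributed. These groups share libraries and some rest on few reads, so the 9 are not read as an excess over chance. WT replicate 1 was the library in 3 of them: Rab1b was at 14.86 normalized counts there and at 37.8 to 47.1 in the other WT libraries, Rab2a at 409.9 against 237 to 259, and Rab43 at 21.05 against 4.53 to 8.91. WT replicate 5 had Rab20 at 9.447, against 0 to 2.55, and Rab28 at 16.79, against 28.0 to 29.9. WT replicate 3 had Rab3a at 3.82, against 6.19 to 7.12. In Flcn KO replicate 4, Rab2a was at 203.2, against 241 to 255, and Rab14 was at 487.6, against 392 to 410. In Flcn KO replicate 2, Rab5a was at 119.9, against 84.9 to 92.2. Rab3a, Rab20 and Rab43 rest on few reads.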

How the results depend on the processing

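Rab8b kept its negative log2 fold change in all 20 alternatives (-0.50 to -0.36), and it was the 1 Rab gene called in edgeR, DESeq2, limma-voom and limma with trend and robust moderation. The other alternatives called no Rab gene. Rab genes at an unadjusted p under 0.05 numbered 3 to 9 with 1 library left out and 4 to 7 otherwise. The family's median log2 fold change lay between -0.08 and -0.03. Over all genes limma called 252, against 727 in DESeq2, 598 with trend and robust, 592 in edgeR and 589 in limma-voom, and 122 to 217 with 1 library left out. Of Rab regulators and effectors limma called 3, against 10 in DESeq2 and edgeR, 8 with trend and robust and in limma-voom, and 1 to 3 with 1 library left out. Rin2 kept its call without any 1 library. With a replicate block, 59 genes in all, no Rab gene and 1 of these regulators (Rin2) were called. Libraries of equal number hardly deviated together (r from -0.006 to 0.048). None of the 5 Flcn KO libraries correlated best with the WT library of its own number. WT replicates 3 and 4 did correlate best with Flcn KO replicates 3 and 4, at r of 0.048 and 0.041. With r this small, the numbers are not read as pairs. The cause of the shifts between settings was not tested. At this depth a Rab gene of under 20 normalized counts could differ by over 2-fold without passing.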

Other observations

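Other parts of the Rab27 and Rab7 machinery were measured without a call in limma or edgeR. Unc13d, which primes secretory lysosomes together with Rab27a, was at 103 to 126 normalized counts in WT and 111 to 127 in Flcn KO (log2 fold change -0.003, SE 0.11, limma adjusted p = 0.995). The synaptotagmin-like genes Sytl1 and Sytl3 had values of 3.72 to 39.7 and 14.9 to 25.5 in WT, and 6.63 to 19.7 and 9.99 to 28.7 in Flcn KO. Mon1a, Mon1b and Ccz1, subunits of the Mon1-Ccz1 exchange factor of Rab7, had log2 fold changes of 0.12 (SE 0.22), -0.27 (SE 0.17) and -0.20 (SE 0.20). The kinases Lrrk1 and Lrrk2, both listed as Rab kinases, had 0.33 (SE 0.32) and -0.12 (SE 0.43). Rabggtb, the catalytic chain of the enzyme that prenylates Rabs, was at 131 to 178 in WT and 144 to 256 in Flcn KO (0.37, SE 0.17, limma adjusted p = 0.358).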
